A study of Mus musculus with 22 samples.

Results

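The regions described here are the loci of Nr2f1 and Nr2f2, which encode the paired nuclear receptors COUP-TFI and COUP-TFII, in a map of H3K27me3 from mouse retina at embryonic day 18.5. H3K27me3 is a repressive mark on histone H3, written by the Polycomb complex PRC2, of which Jarid2 is an accessory subunit. Peaks were taken if the deposited annotation named either gene, or if they lay within 500 kb of a promoter peak of either gene on the same chromosome. This gave 17 of 19034 peaks. All 17 lie around Nr2f2 on chromosome 7, 2 of them carrying its name, and 0 peaks carry the name Nr2f1.

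The mark was mapped by CUT&RUN, in which a nuclease tethered to an antibody cuts out the DNA beside marked nucleosomes. The Jarid2 conditional knockout (cKO) animals were Jarid2 fl/fl with Rx-cre, a Cre line driven from the gene of an early eye-field factor that the protocol text names as a tamoxifen-inducible form, so that recombination is limited to cells of the Rx lineage. Among the 5 controls, replicate 1 was Jarid2 fl/+ with Rx-cre, replicate 3 was Jarid2 fl/fl, and replicates 2, 4 and 5 were Jarid2 fl/+. The protocol text gives fl/fl for controls. Only 1 control thus carried Rx-cre, so effects of Cre itself and of Jarid2 deletion cannot be told apart. All animals were C57BL/6 embryos, with Cre induction at E10.5 by tamoxifen at 75 µg per g, and both retinas of an animal formed 1 sample. Batch 1 held 2 controls and 2 cKO animals of both sexes, and batch 2 held 3 male littermates of each genotype. Replicates 1 and 2 of a genotype belong to batch 1 and replicates 3 to 5 to batch 2. Reads in peaks ran from 1688368 to 2864080 per animal. Levels are given in CPM, counts scaled to the size of each animal's library, so that 1 CPM stands for a few reads.

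COUP-TFI and COUP-TFII are orphan nuclear receptors that bind DNA as dimers at repeats of the hexamer AGGTCA, and they act mostly as repressors of transcription. In the mouse eye they act together in the optic vesicle, where they take part in setting the fates of pigment epithelium, neural retina and optic stalk, and COUP-TFII is present in the dorsal part of the developing retina. COUP-TFII also specifies venous endothelium. PRC2 marks many such developmental regulators over broad domains in tissues or cells where they are silent.

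The 250 bases before the RefSeq start of each gene (GRCm38.p6, the assembly that mm10 represents) are printed because the genes differ in their place relative to the mark. Both lie on the minus strand, the sequence is 5′ to 3′ on that strand, and CpG dinucleotides are in capitals.

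Nr2f2, chr7:70366747-70366996: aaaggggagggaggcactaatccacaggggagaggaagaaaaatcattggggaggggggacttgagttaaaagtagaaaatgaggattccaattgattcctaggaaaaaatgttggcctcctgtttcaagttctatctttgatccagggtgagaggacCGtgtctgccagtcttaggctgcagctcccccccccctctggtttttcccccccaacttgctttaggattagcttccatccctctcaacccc

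Nr2f1, chr13:78198874-78199123: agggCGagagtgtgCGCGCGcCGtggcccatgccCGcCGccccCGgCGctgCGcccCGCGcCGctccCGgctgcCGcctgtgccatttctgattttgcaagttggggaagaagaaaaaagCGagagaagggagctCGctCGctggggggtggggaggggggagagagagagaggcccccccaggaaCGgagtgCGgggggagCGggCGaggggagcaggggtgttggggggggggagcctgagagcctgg

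All 250 bases of the Nr2f2 window lie inside a peak, and 0 bases of the Nr2f1 window do. The Nr2f2 window holds 1 CpG and a GC content of 50.0%, and 7.87% of 32851 windows of the same kind hold fewer CpGs. The Nr2f1 window holds 22 CpGs and a GC content of 72.0%, and 85.2% of windows hold fewer, the median window having 6. A second RefSeq start of Nr2f1, inside the gene, has a window with 2 CpGs that also lies outside every peak. For Nr2f2 only the window above was read, although a further peak, 6.58 kb downstream of this start, is also annotated as promoter. The CpG content at other starts of Nr2f2 is therefore not covered. The hexamer AGGTCA, read on both strands, is in 0 of these windows and in 14.0% of all windows.

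H3K27me3 lay over most of the Nr2f2 gene and in a chain of peaks assigned to non-coding genes on its downstream side. The Nr2f2 body in RefSeq (chromosome 7, 70351946 to 70366746, mm10, minus strand) had 83.4% of its 14801 bases under peaks. A peak of 14951 bp (70361940 to 70376890) covered its start, called the start-site peak here, and a second peak of 7531 bp (70352640 to 70360170) lay over the downstream part of the gene, short of its end, and is called the gene-body peak. Both are annotated as promoter within 1 kb of a start, and 1769 bp separate them. The 2 names follow the RefSeq start, which lies 6.58 kb from the gene-body peak. By its annotation the gene-body peak is also a promoter peak, near a start other than that one, which was not examined here. The annotation places 10 of the 17 peaks between genes, 5 at promoters and 2 in exons. It assigns 10 of the 17 to lincRNA genes, although many of these, such as those of Gm35325, lie between genes.

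Per length, the mark was densest from the Nr2f2 start to about 90 kb downstream. In controls the start-site peak held 25.1 ± 3.3 CPM per kb, the Gm29683 peak 25.2 ± 3.9 and the Gm29327 peak 33.2 ± 4.4 (SD, n = 5). The gene-body Nr2f2 peak held 10.6 ± 1.4 CPM per kb and lay between denser peaks on both sides. The 3 dense peaks together are most of the locus: Gm29683 took 40.3 ± 1.6% of its reads in controls, Gm29327 24.1 ± 0.43% and the start-site peak 17.5 ± 0.68%. The other 13 peaks had 12.8 CPM per kb or less in controls.

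**Figure D1:**
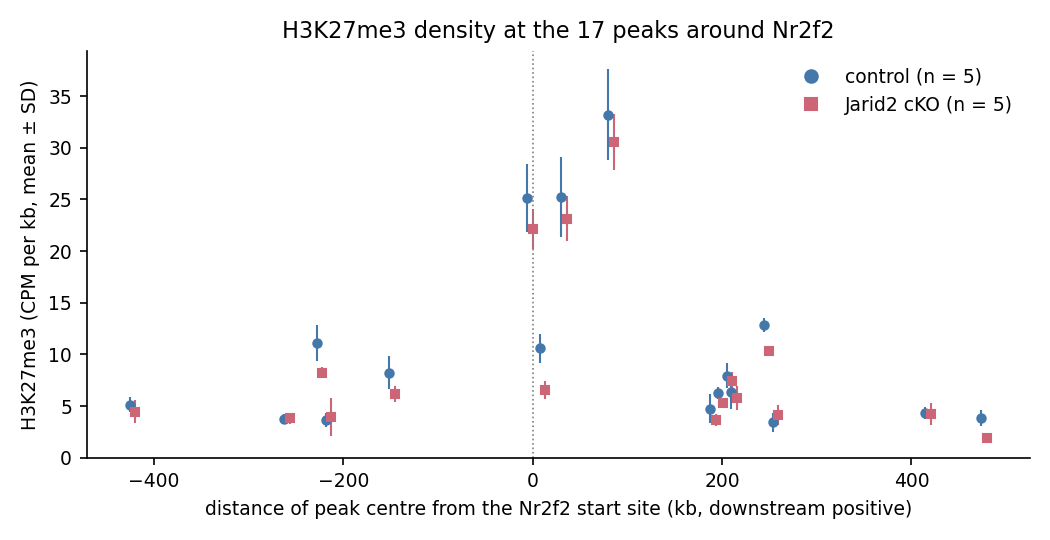
H3K27me3 density (CPM per kb, mean ± SD over 5 animals) at the 17 peaks, by the distance of the peak centre from the Nr2f2 start in kb, with downstream positive and each pair of symbols set 3 kb to either side of the true place. The 3 dense peaks stand at 25.1 to 33.2 CPM per kb in controls, and the pair near 10 kb downstream is the gene-body Nr2f2 peak, at 10.6 in controls and 6.59 in cKO.

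The comparison of cKO with control asked where the mark at this locus differs when Jarid2 is deleted. It was lower in cKO at the gene-body Nr2f2 peak, which is itself annotated as promoter, and at 3 distant peaks. The densest peaks, among them the start-site peak, had smaller negative fold changes that did not pass. Loss at a promoter and loss in a gene body are therefore not separated here. Of 15 tested peaks, 4 were lower and 0 were higher (edgeR quasi-likelihood test, adjusted p under 0.05), against 7.38% lower and 1.46% higher among all 16307 tested peaks. Log2 fold changes were negative at 14 of the 15, beside 7431 of the 16307, with a median of -0.18 beside 0.022 for all tested peaks. An unadjusted p under 0.05 was found at 7 of the 15, beside 3501 of the 16307. The 15 peaks share the same animals and are not independent. No higher peak had an unadjusted p under 0.05 with edgeR, and DESeq2 and limma-voom also called 0 higher. Of the locus peaks, DESeq2 called 3 lower and limma-voom 4. Over all peaks DESeq2 called 835 lower and only 28 higher, so its 0 higher here says little. The 2 peaks left out by the filter on low counts, of Gm44812 and Gm44808, had at most 67 reads over the 10 animals. Since retinas were measured in bulk, fewer cells carrying the mark and less mark per cell cannot be told apart.

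**Figure D2:**
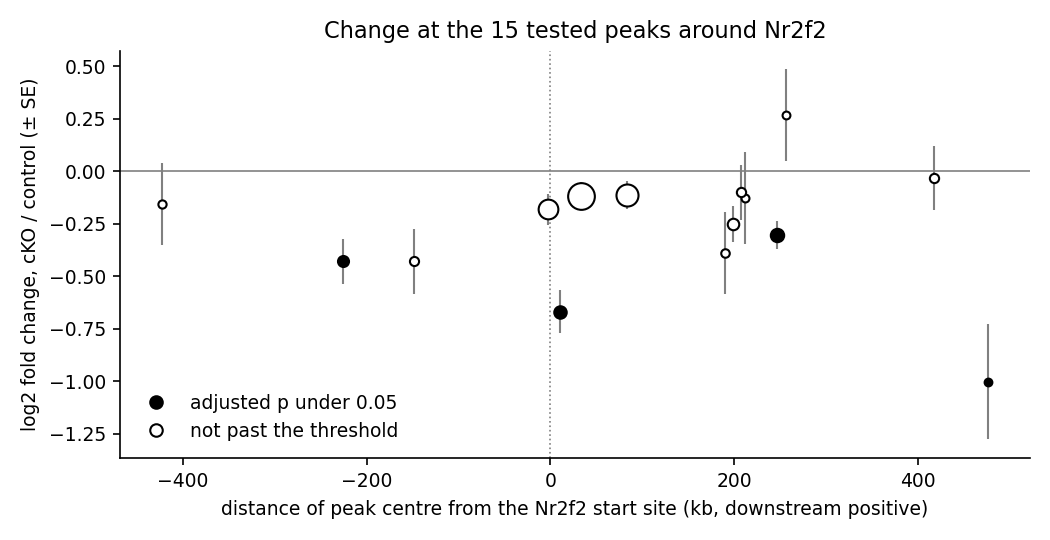
Log2 fold change (cKO over control, ± SE) at the 15 tested peaks by distance from the Nr2f2 start in kb, with filled symbols for an adjusted p under 0.05 and larger symbols for a higher level in controls. The 4 filled symbols lie at log2 fold changes of -0.30 to -1.003, and the 3 largest symbols lie between -0.11 and -0.18.

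The gene-body Nr2f2 peak, 6.58 kb downstream of the start, had the smallest p of the locus. In controls 1 to 5 it held 75.2, 96.9, 78.2, 80.4 and 68.8 CPM. In cKO animals 1 to 5 it held 40.5, 50.6, 57.5, 53.0 and 46.6 CPM. The groups did not overlap, and within each batch the highest cKO animal lay below the lowest control. The mean fell from 79.9 ± 10.45 to 49.6 ± 6.5 CPM (SD over 5 animals a group). The log2 fold change was -0.67 ± 0.10 (SE, 95% interval -0.87 to -0.47, edgeR adjusted p = 1.3e-04), or 1.59-fold lower. The log2 fold change was -0.91 in batch 1 (edgeR adjusted p = 0.172 with 2 animals a group) and -0.54 in batch 2 (1.5e-04). A test of that difference between batches gave an unadjusted p of 0.0761 in edgeR. The call held with DESeq2 (adjusted p = 6.0e-06) and without each animal in turn (edgeR adjusted p up to 9.7e-04).

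The start-site peak, which holds far more reads, had a smaller fold change. Controls 1 to 5 held 425, 401, 395, 358 and 298 CPM. The cKO animals held 322, 381, 315, 327 and 308 CPM. The groups overlapped, since control 5 lay below all cKO animals, but each cKO animal lay below the control mean of its batch. The log2 fold change was -0.18 ± 0.073 (SE, 95% interval -0.33 to -0.038), which did not pass over all peaks (edgeR adjusted p = 0.142, DESeq2 0.202). Without control replicate 5 it was -0.26 and passed (edgeR adjusted p = 0.00468).

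Set against the start-site peak in the same animal, the gene-body peak held 17.7, 24.1, 19.8, 22.4 and 23.1% of its level in controls 1 to 5. In cKO animals 1 to 5 this ratio was 12.6, 13.3, 18.2, 16.2 and 15.1%. All cKO animals but replicate 3 lay below every control, and replicate 3 lay above control 1 only. The share of the locus in the gene-body peak was 3.74 ± 0.38% in controls and 2.62 ± 0.43% in cKO, while that of the start-site peak was 17.5 ± 0.68% and 17.4 ± 0.48% (SD, n = 5). The difference between the peaks was not tested.

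Summed over both peaks, Nr2f2 held 500, 498, 473, 439 and 367 CPM in controls 1 to 5. The sums in cKO animals 1 to 5 were 363, 432, 373, 380 and 354 CPM. Control 5 lay among the cKO animals. The mean was 456 ± 55 CPM in controls and 380 ± 30 in cKO, a log2 fold change of -0.27 ± 0.069 (edgeR over 11324 genes, adjusted p = 0.0150, DESeq2 0.00442), where 8.29% of all genes were lower and 1.48% higher. Exchanging animals within batches, an exact permutation test (two-sided, on log2 CPM) gave p = 0.05, with 0.0167 as the smallest value that its 120 arrangements allow. The call was lost without control replicate 3 (log2 fold change -0.23, edgeR adjusted p = 0.0525), without cKO replicate 1 (-0.22, 0.0595) and in batch 2 alone (-0.22, 0.0932), where 3 animals a group were left.

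**Figure D3:**
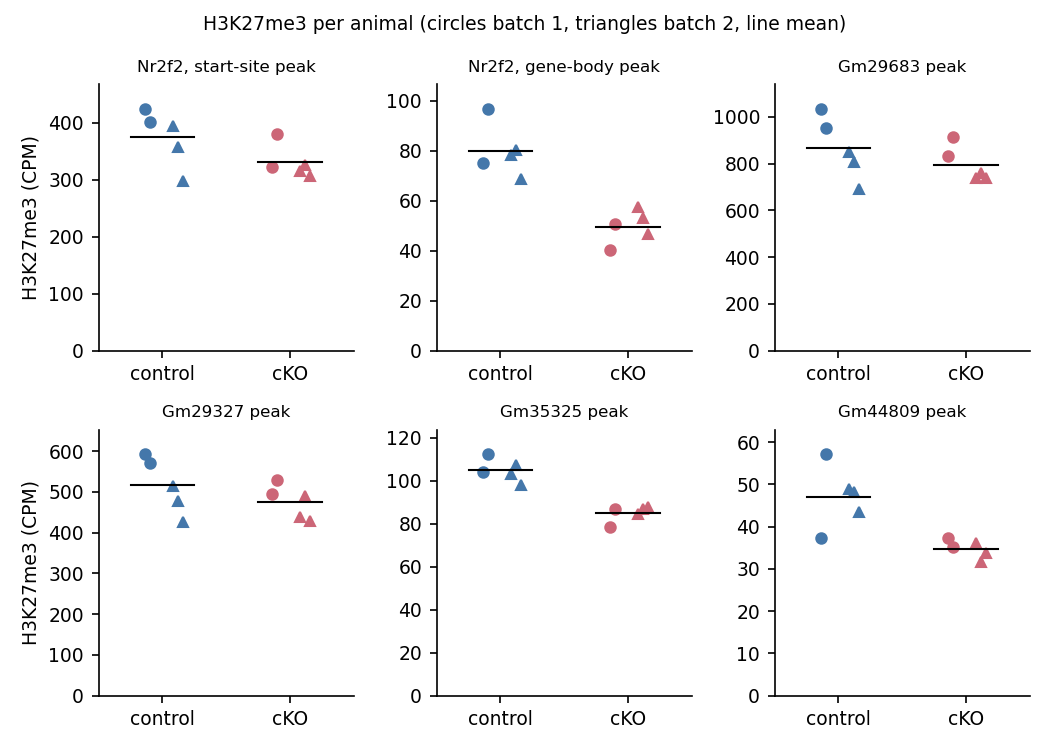
H3K27me3 in CPM per animal at 6 peaks of the Nr2f2 locus, with circles for batch 1, triangles for batch 2 and a line at the mean of 5 animals. At the gene-body Nr2f2 peak all cKO animals lie at 40.5 to 57.5 CPM and all controls at 68.8 to 96.9 CPM, while at the start-site, Gm29683 and Gm29327 peaks the groups overlap.

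The peak with most reads covered the promoter of the lincRNA gene Gm29683 over 34401 bp (70316380 to 70350780) and ended 1859 bp from the gene-body Nr2f2 peak. Controls 1 to 5 held 1035, 953, 849, 808 and 692 CPM there. The cKO animals held 831, 913, 739, 758 and 740 CPM. The groups overlapped, and the log2 fold change of -0.12 ± 0.067 did not pass (edgeR adjusted p = 0.333). At the Gm29327 exon peak (70276020 to 70291590) it was -0.11 ± 0.067 (517 ± 68 to 476 ± 42 CPM, adjusted p = 0.348). Without control replicate 5 the log2 fold changes were -0.18 and -0.17 with edgeR adjusted p of 0.0126 and 0.0364, and 6 peaks of the locus were then lower.

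Control replicate 5 also had the lowest share of reads in strong peaks of all 10 animals. The 1000 strongest peaks outside the locus took 50.7, 48.3, 48.0, 46.6 and 44.3% of reads in controls 1 to 5. In cKO animals 1 to 5 they took 47.8, 48.8, 47.5, 46.9 and 45.6%. The part of this share in the levels of the strong Nr2f2 peaks was not tested.

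**Figure D4:**
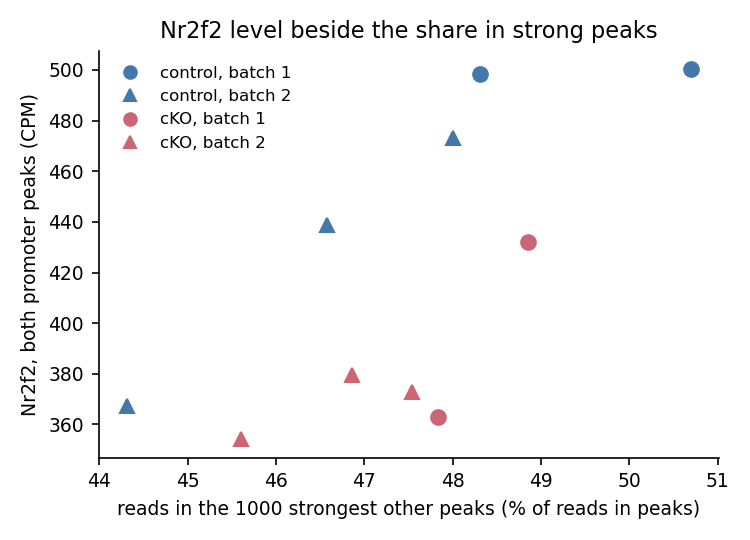
Level of Nr2f2 (CPM, sum of both promoter peaks) against the percentage of an animal's reads that fell in the 1000 strongest peaks outside the locus, one symbol per animal. Control replicate 5 is the lowest control on both axes, at 367 CPM and 44.3%, and the cKO animals span 45.6 to 48.8% and 354 to 432 CPM.

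Among the distant peaks, 3 were lower. An 8181 bp peak between genes (70115850 to 70124030), 243 kb downstream of Nr2f2 and assigned to the lincRNA gene Gm35325, held 104, 113, 103, 107 and 98.3 CPM in controls 1 to 5. In the cKO animals it held 78.3, 86.7, 84.4, 86.9 and 87.9 CPM. The groups did not overlap, and the spread within each was small. The log2 fold change was -0.30 ± 0.068 (edgeR adjusted p = 0.00493, DESeq2 0.0261), with -0.39 in batch 1 and -0.27 in batch 2 (edgeR adjusted p = 0.0751 in the latter).

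On the upstream side, a promoter peak of Gm44809, an unverified transcript 223 kb away (70589900 to 70594120), held 37.3, 57.3, 48.9, 48.2 and 43.5 CPM in controls 1 to 5. The cKO animals held 37.3, 35.1, 36.2, 31.6 and 33.9 CPM. Control 1 and cKO 1 were level to 3 digits, and the other controls lay above all cKO animals. The log2 fold change was -0.43 ± 0.11 (edgeR adjusted p = 0.0108, DESeq2 0.0426). The call was lost without the batch term (edgeR adjusted p = 0.0562), with the first technical duplicate only (0.0501) and in batch 1 alone (-0.37, 0.552).

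The largest fold of the locus rested on few reads. A 1181 bp peak assigned to the pseudogene Gm44690 (69889460 to 69890640), 476 kb downstream, had 74 reads over the 10 animals and fell from 4.59 ± 0.91 to 2.27 ± 0.49 CPM. Each cKO animal lay at 2.67 CPM or less and each control at 3.14 CPM or more. Its log2 fold change of -1.003 ± 0.27 had an edgeR adjusted p of 0.0403, and DESeq2 gave none because of the low counts. The call was not made in any of the 10 fits without 1 animal: the peak dropped below the filter in 6, and in the other 4 the adjusted p was 0.0632 to 0.0845.

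The other 11 tested peaks did not pass. At 5 of them, every cKO value was under the mean of the controls in its batch. How common this is among all tested peaks was not tested, and no conclusion is drawn from it. Of these 11, the Gm44811 peak 147 kb upstream had the largest negative value, -0.43 ± 0.15 (17.2 ± 3.3 to 12.9 ± 1.7 CPM, edgeR adjusted p = 0.0948; without control replicate 1 it was 0.0406). A 9051 bp Gm35325 peak (70163800 to 70172850) had -0.25 ± 0.085 (57.2 ± 5.2 to 47.9 ± 2.4 CPM, adjusted p = 0.0725). The only positive value was 0.27 ± 0.22, at a Gm35325 peak of 5.22 CPM in controls (70109530 to 70111050, adjusted p = 0.600). Of 7 tested peaks at a mean of 20 CPM or more 3 were lower, and of 8 weaker ones 1 was. The same split was not made over all tested peaks, so no conclusion is drawn from these counts. At the limits of the 500 kb rule, the last peaks inside lay 462 kb (Gm44690) and 412 kb (Gm24880, 8.15 to 7.06 CPM) from a promoter peak, and the next ones outside lay 526 kb (2.47 to 2.72 CPM) and 646 kb away (Gm39033, 19.9 to 17.1 CPM).

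Over all 17 peaks the locus held 2144 ± 254 CPM in controls and 1904 ± 142 in cKO (SD, n = 5), the control level being 1.17 times that of cKO in batch 1 and 1.09 times in batch 2. The genotype effect was not shown to differ between batches at any peak: with edgeR's interaction test 0 of the 15 had an adjusted or unadjusted p under 0.05. Only edgeR was run for it. Levels of the 7 peaks at 20 CPM or more, centred on genotype and batch, had Pearson r from -0.70 to 0.97 over 21 pairs (median 0.37, 10 animals). These values share the depth of the library and the share in strong peaks.

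The Nr2f1 gene itself had no peak. Its body (chromosome 13, 78188971 to 78198873, minus strand, 9903 bp) lay inside a stretch of 20.6 kb without a peak, with marked regions 2.92 kb beyond its end and 7.76 kb upstream of its start. Absence of a called peak does not give a level, and no reads are given between peaks. The 3 peaks within 500 kb of this body were added after the data were seen and belong to other genes.

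The peak on the downstream side, at the promoter of the antisense gene Gm38604 (78164310 to 78186050), had 21.1 ± 2.2 CPM per kb in controls. It held 496, 513, 441, 453 and 392 CPM in controls 1 to 5 and 480, 427, 390, 367 and 365 CPM in cKO animals 1 to 5. The groups overlapped, and the log2 fold change of -0.18 ± 0.063 did not pass (edgeR adjusted p = 0.0817). It passed with the replicate number as a block (0.0479) and without control replicate 5 (0.00771).

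Upstream of Nr2f1, an intron peak of A830082K12Rik (78206630 to 78213450) was lower in cKO. Controls 1 to 5 held 43.8, 59.8, 66.2, 55.3 and 52.1 CPM, and cKO animals 1 to 5 held 33.0, 26.1, 42.6, 45.9 and 41.4 CPM. Only cKO 4 reached above the lowest control, and within each batch the groups did not overlap. The log2 fold change was -0.55 ± 0.11 (edgeR adjusted p = 0.00204, DESeq2 0.00259), with -0.80 in batch 1 and -0.44 in batch 2. The call was lost without the batch term (edgeR adjusted p = 0.0618) and in batch 1 alone (0.254). The third peak, 492 kb away at Fam172a (77705000 to 77707100), was higher on 138 reads (4.79 ± 0.95 to 8.11 ± 1.23 CPM, log2 fold change 0.76 ± 0.20, adjusted p = 0.0284, DESeq2 0.246), and its call was lost in 6 of 10 fits without 1 animal (controls 1 and 3, cKO 1, 2, 4 and 5; adjusted p up to 0.0979).

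**Figure D5:**
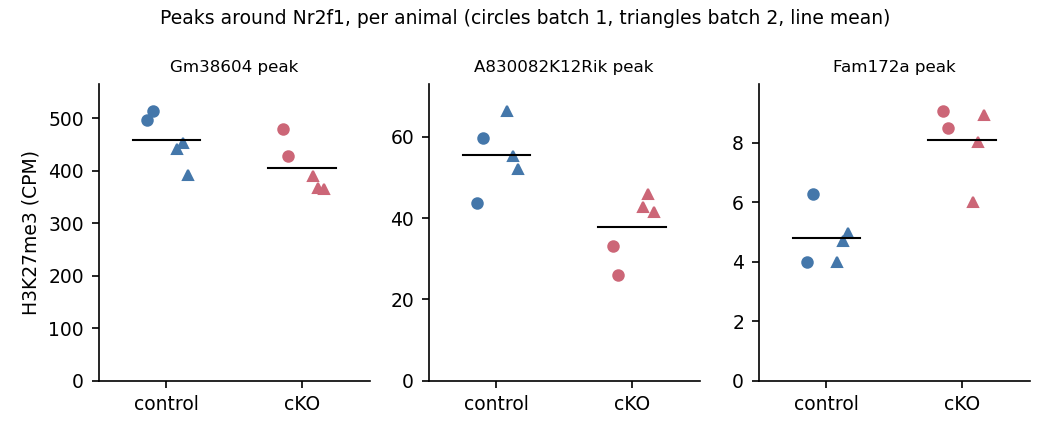
H3K27me3 in CPM per animal at the 3 peaks within 500 kb of Nr2f1, with circles for batch 1, triangles for batch 2 and a line at the mean of 5 animals. The A830082K12Rik peak lies at 43.8 to 66.2 CPM in controls and 26.1 to 45.9 CPM in cKO, and the Fam172a peak at 3.98 to 6.29 and 6.03 to 9.06 CPM.

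Other nuclear receptor genes gave a background of the same family. Of 46 listed genes 30 were tested, and 3 were lower and 0 higher (edgeR), a share near the 8.29% lower and 1.48% higher among all 11324 genes, with a median log2 fold change of -0.041 beside 0.015 for all genes. Of the genes not called, 3 with positive values had an unadjusted p under 0.05, and DESeq2 and limma-voom called 0 higher. The 3 lower genes were Esrrg, the estrogen-related receptor gamma (-0.40 ± 0.062, adjusted p = 2.3e-04), Rora, a retinoid-related orphan receptor (-0.38 ± 0.062, 3.7e-04), and Nr2e1, the Tlx receptor of neural progenitors (-0.38 ± 0.11, 0.0298 in edgeR but 0.209 in DESeq2). The Nr2e1 call was lost in 7 of 10 fits without 1 animal (each of controls 1 to 4 and cKO 1 to 3, adjusted p up to 0.138). Rxrg, a retinoid X receptor of cones, had -0.20 ± 0.10 (adjusted p = 0.236). Rorb, at 3.61 CPM in controls, was below the filter, and no peak carried the names Nr2f6 and Nr2e3.

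Genes of the optic vesicle and the retinal axes were taken as a second list. Of 30 genes 22 were tested, and 3 were lower and 0 higher (edgeR), beside 8.29% lower and 1.48% higher among all genes. DESeq2 and limma-voom also called 0 higher, and 0 had a positive value with an unadjusted p under 0.05 in edgeR. Their median log2 fold change was -0.068. Otx2, a homeobox factor of pigment epithelium and photoreceptor precursors, had -0.33 ± 0.066 (731 ± 73 to 585 ± 31 CPM, edgeR adjusted p = 0.00222), Lhx2, an eye-field factor, -0.26 ± 0.070 (0.0203, DESeq2 0.0527) and Mitf, the regulator of pigment cell identity, -0.19 ± 0.053 (0.0282, DESeq2 0.116). The Lhx2 call was lost without control 2 or 4 or cKO 1, 2 or 5 (edgeR adjusted p up to 0.0730), and the Mitf call without controls 2, 3 or 4 or cKO 1, 2, 4 or 5 (up to 0.0900). Without control replicate 5, 6 genes of the list were lower, and without control 2 or 4 or cKO 1, 2 or 5 only 1 was. Pax6 (-0.13, adjusted p = 0.727), Pax2 (-0.029, 0.856), Vax2 (-0.045, 0.682) and the dorsal factor Tbx5 (-0.072, 0.617) did not pass, and their directions turned under other scalings or subsets. For Pax6 the log2 fold change was -1.05 in batch 1 alone (edgeR adjusted p = 0.162) and 0.21 in batch 2 alone (0.555), and the test of that difference gave an adjusted p of 0.209 (unadjusted 1.3e-04).

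Across the 10 animals, levels centred on batch resembled Nr2f2 most at D430041D05Rik (Pearson r 0.98, Spearman rho 0.95), Sfta3-ps (0.98, 0.90), Camk1d (0.96, 0.95), Prkg2 (0.96, 0.89) and Otx2 (0.96, 0.85). They are the 5 highest of 7018 genes with at least 20 CPM, where the median r was 0.11. With genotype also centred their r was 0.90 to 0.98, and the points share the depth and the share in strong peaks of each library.

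H3K27me3 does not measure expression, so the label of the tissue could be checked only by absence of the mark. Of 10 markers of retinal progenitors and neurons, Rax, Six6, Sox2 and Crx had no peak. The 6 with a peak summed to 942 to 1140 CPM in controls and 754 to 885 CPM in cKO. Most of these sums is Otx2, with means of 731 and 585 CPM, so they do not speak for the set. Of 5 tested, 3 were lower in edgeR (Atoh7, Otx2 and Lhx2), beside 8.29% of all genes. Of 8 pigment epithelium markers 3 had a peak, with sums of 906 to 975 and 823 to 869 CPM. Of these, 2 were tested and 1, Mitf, was lower in edgeR. Of 8 microglia and blood markers 3 had a peak, with 53.9 to 67.0 and 63.9 to 74.6 CPM. Sums of lens markers (4 of 7 with a peak, 1044 to 1519 and 1122 to 1399 CPM) overlapped between groups. So did those of endothelial markers (3 of 7, 283 to 355 and 294 to 316 CPM) and of microglia and blood. In these 3 sets 0 markers were called. Markers without a peak were 4 of 10 for retina, 5 of 8 for pigment epithelium and 5 of 8 for microglia and blood. For lens they were 3 of 7 and for endothelium 4 of 7, so absence of the mark did not set the retina apart. The part of cell composition in the changes at Nr2f2 was not tested.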

How the data were processed

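H3K27me3 CUT&RUN counts were available for 16 libraries of 10 animals, and the 6 IgG libraries were not used here. The deposited table gives, per the file headers, whole counts per peak made by the authors for 1 set of 19034 peaks. The build is mm10 and the tools listed are DESeq2 1.38.1, MACS2, SAMtools and Novoalign 4.02.02, per the submitters' processing notes. Settings for peak calling, read counting and duplicate reads are not given in these sources, and broad peaks split or joined by the caller set the regions compared.

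Each batch 2 animal had 2 technical duplicates, whose counts agreed within sampling noise (chi-square of 0.866 to 0.956 for each degree of freedom); they were summed and counted as 1 sample. Counts were filtered with filterByExpr, scaled with TMM and tested with edgeR 4.0.16 (R 4.3.3, quasi-likelihood, batch plus genotype, Benjamini-Hochberg over all tested peaks or genes, threshold 0.05). CPM are TMM-scaled; log2 CPM used a prior count of 2. The standard error is the size of the log2 fold change divided by the root of the F statistic. Gene values are sums over peaks with that gene name. Alternatives were other scalings and filters, models, batches, duplicates, windows, DESeq2 1.42.0, limma 3.58.1 (voom) and leaving out each animal. The steps were tested on simulated data. Promoter sequences and gene bodies came from RefSeq (GRCm38.p6).

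The members and lists were chosen with earlier results of these data known. Named peaks are all peaks called Nr2f1 or Nr2f2, every called peak, and those with most reads or the largest fold; the rest are given by counts and ranges, apart from a few named after their values were seen, as were the peaks around Nr2f1 and the marker values. From each list, called genes and a set of genes chosen by name are given. The values of 1 listed gene are not reported here.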

Additional observations from a re-analysis of the deposited data

Results flagged for a closer look

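At the Nr2f2 start-site peak (chromosome 7, 70361940 to 70376890), cKO replicate 2 held 381 CPM and stood apart from the other 4 cKO animals, which held 308 to 327 CPM. The gap was 0.743 of the group's range, above Dixon's 95% critical value for 5 samples. Of 42 groups of 5 animals examined, 1 was flagged, and chance flags about 1 in 20.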

How the results depend on the processing

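The gene-body Nr2f2 peak stayed lower past the threshold in 24 of 25 alternatives, the exception being batch 1 alone (2 animals a group). Lower peaks at the locus numbered 2 without the batch term, in batch 2 alone, with the first duplicate only and at an adjusted p under 0.01. Without 1 animal they numbered 3 to 6. They were 7 of 27 peaks within 1000 kb, beside 4 of 17 within 500 kb, counting untested peaks, and 1 of the 2 peaks named Nr2f2. Higher peaks numbered 1 with the Nr2f1 surroundings added. In batch 1 alone edgeR called 0 (5 at an unadjusted p under 0.05; 1828 over all peaks, 0 called; 5 and 8 in the receptor and optic lists, 0 called). Over all peaks, lower ones numbered 335 without the batch term, 793 at 0.01 and 950 to 1366 without 1 animal. Higher ones numbered 467 with total reads, 412 with the upper quartile, 24 without the batch term, 107 and 116 with the first or second duplicate, 28 with DESeq2, 46 at 0.01, 516 at 0.1 and 110 to 288 without 1 animal. The lower share of calls was 83.5%, but 68.4% with total reads and 72.1% with the upper quartile, where the median of all peaks moved from 0.022 to 0.068 and 0.058. The Nr2f2 sum had a log2 fold change of -0.27 without the batch term (edgeR adjusted p = 0.100), -0.34 in batch 1 alone (0.210), -0.22 in batch 2 alone and -0.33 to -0.22 without 1 animal. Receptor genes lower numbered 0 without the batch term (5 at an unadjusted p under 0.05) and 2 to 3 without 1 animal; higher ones 3 with total reads, 2 with the upper quartile, 1 with cyclic loess and 0 to 1 without 1 animal. Optic list genes lower numbered 1 with total reads, no batch term, batch 2 alone, the first duplicate or DESeq2, and 1 to 6 without 1 animal; 1 was higher with cyclic loess. The cause of these shifts was not tested.

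Signs turned as follows, none past the threshold: 4933423L19Rik to 0.011 (total reads), 0.0038 (upper quartile), 0.019 (without control 5) and 0.093 (without cKO 3; -0.19 to 0.093 without 1 animal); Gm35325 at 70157760 to 0.0082 (batch 1), 0.013 (first duplicate) and 0.00045 (without control 4; -0.17 to 0.00045 without 1 animal); Gm24880 to 0.071 and Pax6 to 0.21 (batch 2), Pax6 also to 0.022 (without control 1; -0.20 to 0.022 without 1 animal); Pax2 to 0.031 (total reads), 0.011 (upper quartile), 0.046 (batch 2), 0.053 (loess) and 0.018, 0.0054 and 0.0076 (without control 1, control 3 or cKO 1; -0.083 to 0.018 without 1 animal); Vax2 to 0.013 (total reads), 0.0092 (batch 2) and 0.028 (loess); Tbx5 to 0.0080 (loess).

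Whether replicate numbers pair the animals could not be settled. Centred on group and batch, same-numbered animals had correlations of -0.45 to 0.10, and 1 of 5 matched its own number best. With 2 animals a group in batch 1, this centring makes them mirror images, so replicates 1 and 2 had to give the same value. Centred on group alone, the correlations were -0.11 to 0.26. With the replicate block the Nr2f2 sum had -0.27 (edgeR adjusted p = 0.00910). With RefSeq bodies Nr2f2 had -0.28 (0.00226), and Nr2f1 gave no value because no peak overlaps it.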
